A study of Mus musculus with 2 samples.

Results

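The interferon-stimulated genes described here are 39 mouse genes whose transcription is switched on by interferon. They were taken by gene symbol from a fixed list without a cut on measured values, but with earlier results of these data known. Of the 39, 38 were found under their symbols in both libraries, among 31053 genes counted, and Mx2 was not analysed here. They were read in heart non-cardiomyocytes of wild-type male mice (C57BL6/J), taken at day 20 after a sham operation or after transverse aortic constriction (TAC), in which a narrowed aorta raises the pressure the left ventricle must work against. Each group gave 1 single-cell library, and the labels do not say how many hearts or which ages went into it. Differences between the libraries therefore have no replicate check, no p-value was computed, and every interval below is a 95% interval that covers counting error only. Intervals of levels and ratios take UMIs as independent, so they are too narrow for members whose UMIs gather in few cells.

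Interferons are secreted proteins released by cells that sense viral or misplaced nucleic acid. Type I interferon binds the receptor of Ifnar1 and Ifnar2, and the signal reaches the nucleus as a complex that holds Stat2 and Irf9 and binds the interferon-stimulated response element (ISRE) in the promoters of its targets. Type II interferon, the product of Ifng in lymphocytes, binds Ifngr1 and Ifngr2 and acts through the gamma-activated site (GAS), found among others in the promoter of Irf1. The targets include proteins that trap or degrade viral RNA, membrane proteins that hold back virus particles, sensors and transcription factors that amplify the response, and GTPases that attack vacuoles of intracellular pathogens.

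The promoters of 28 of the 38 members could be matched by symbol to RefSeq promoters of the GRCm38.p6 build, each running from 250 bases before to 50 bases after a start site. The ISRE was searched as GAAA, any 2 bases and GAAA, or on the other strand TTTC, any 2 bases and TTTC, with overlapping matches allowed. It was found in 17 of the 28 members (60.7%), against 3.99% of the 27025 genes in the promoter table and 3.44% of its 32851 promoters. The GAS, searched as TTCNNNGAA, which reads the same on both strands, was found in 7 of the 28 (25%), against 9.55% of all genes. The 5 stretches below were chosen from members that the results name because they hold a motif; the listed promoters of Irf7, Ifit2, Cmpk2, Oasl1 and Oasl2 held no ISRE match. They show 160 bases upstream of the RefSeq start, without the bases nearest to it, 5′ to 3′ on the strand of the gene, with the motif in capitals. Ifit1 and Ifit3 each hold 2 ISRE matches, Isg15 holds 3 that overlap, Rsad2 holds 1, and Irf1 holds a GAS and no ISRE in the first of its 2 listed promoters. A match describes these letters and does not show that a factor was bound.
Ifit1, chr19:34640699-34640858, plus strand: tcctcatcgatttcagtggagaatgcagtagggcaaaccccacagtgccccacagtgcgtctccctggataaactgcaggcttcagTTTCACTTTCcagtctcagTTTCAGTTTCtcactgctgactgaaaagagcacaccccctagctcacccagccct
Ifit3, chr19:34583339-34583498, plus strand: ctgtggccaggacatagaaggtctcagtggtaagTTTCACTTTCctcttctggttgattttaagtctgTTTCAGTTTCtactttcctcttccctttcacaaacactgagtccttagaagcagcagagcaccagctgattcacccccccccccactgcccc
Isg15, chr4:156200849-156201008, minus strand: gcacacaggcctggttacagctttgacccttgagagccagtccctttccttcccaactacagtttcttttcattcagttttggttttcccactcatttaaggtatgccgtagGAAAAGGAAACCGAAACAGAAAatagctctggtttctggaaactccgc
Rsad2, chr12:26456483-26456642, minus strand: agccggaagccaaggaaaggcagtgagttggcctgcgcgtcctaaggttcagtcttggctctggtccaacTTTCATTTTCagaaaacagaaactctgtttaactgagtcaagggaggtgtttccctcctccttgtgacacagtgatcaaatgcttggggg
Irf1, chr11:53769824-53769983, plus strand: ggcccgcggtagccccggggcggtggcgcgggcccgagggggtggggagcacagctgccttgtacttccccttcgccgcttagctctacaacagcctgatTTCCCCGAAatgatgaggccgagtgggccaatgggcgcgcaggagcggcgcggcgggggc

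The sham library held 8426 cell barcodes with 42490230 UMIs (unique molecular identifiers, each standing for a captured transcript). The TAC library held 8901 with 96003109 UMIs, and 15 barcode sequences occurred in both. After filtering, 7894 sham cells with a median of 4881.5 UMIs and 7854 TAC cells with a median of 11158 UMIs were kept. Cells were placed in classes by marker genes, which gave 6152 sham and 5481 TAC fibroblast-like cells, 1133 and 918 macrophage-like, 192 and 609 blood endothelial-like, and 68 and 308 lymphatic endothelial-like cells; these 4 classes were compared. Mural-, B cell-, T and NK- and, in TAC, neutrophil-like cells numbered 35 to 79 per library and are given as levels, while 208 sham and 293 TAC cells stayed unassigned. Among the 10 leading genes of each class, the marker of another class appeared only as Cldn5 in lymphatic endothelial-like cells. Levels are UMIs per 1000000 UMIs of the class (CPM), and since each molecule is counted once at its 3′ end they are not divided by gene length. Fewer transcripts per cell and fewer cells with the transcript give the same summed level, and are told apart below only where single cells are read.

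Sham and TAC levels of the members summed together differed by class. Without Ifitm3 and Bst2, which every large class carries at a high level, the other 36 members summed to 1374 CPM in sham and 1777 CPM in TAC fibroblast-like cells, 2351 and 3795 CPM in macrophage-like cells, 1632 and 2649 CPM in blood endothelial-like cells, and 2698 and 2735 CPM in lymphatic endothelial-like cells. In sham, lymphatic endothelial- and macrophage-like cells were thus highest and fibroblast-like cells lowest of the 4. The 36 include Ifi27l2a, at 532 and 701 CPM in sham and TAC fibroblast-like cells and 812 and 1954 CPM in macrophage-like cells. It was at 113 and 88.1 CPM in blood endothelial-like cells and 316 and 1070 CPM in lymphatic endothelial-like cells. Most of the macrophage-like difference in the sum was therefore Ifi27l2a. In lymphatic endothelial-like cells the higher TAC level of Ifi27l2a offset a lower TAC sum of the rest. Among the small classes, mural-like cells were at 768 CPM in sham (interval 584 to 990) and 1038 CPM in TAC (interval 927 to 1158). T and NK-like cells were at 904 CPM in sham (interval 760 to 1067), which overlaps the mural interval, and at 1335 CPM in TAC (interval 1176 to 1509). B cell-like cells were at 1188 CPM in sham (interval 957 to 1459) and 802 CPM in TAC (interval 672 to 949). The 79 TAC neutrophil-like cells were at 3215 CPM (interval 2998 to 3444).

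**Figure D1:**
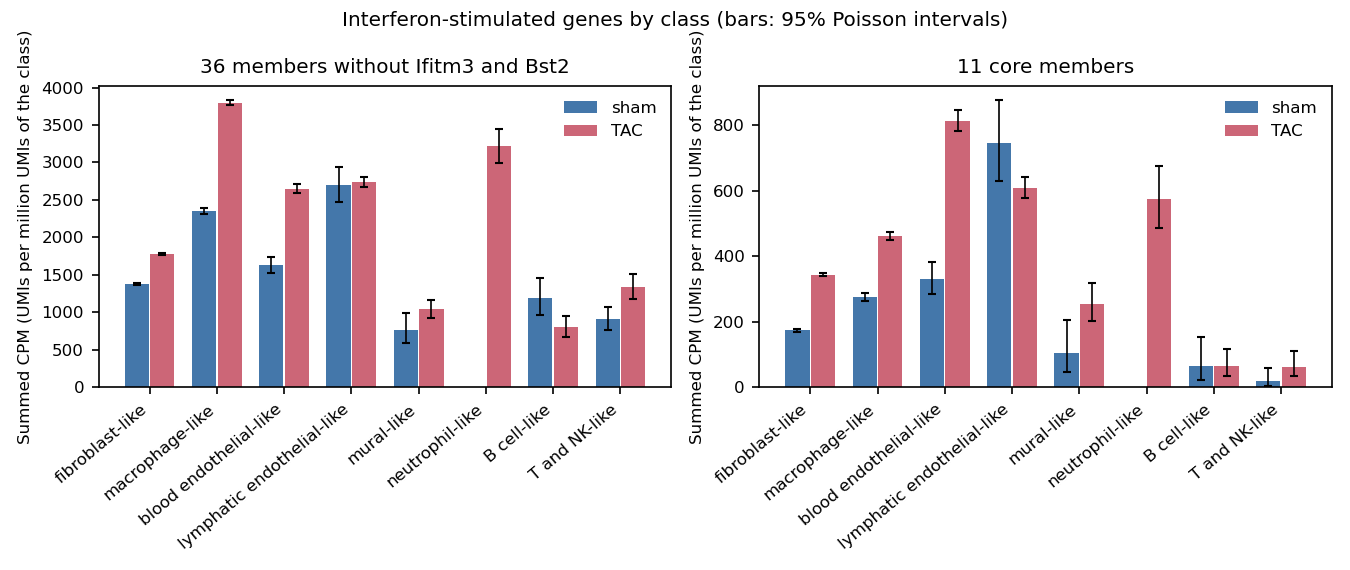
Summed level, in UMIs per 1000000 UMIs of the class, of 36 members (left) and of the 11 core members (right) for sham (blue) and TAC (red) libraries in 8 classes; error bars are exact 95% Poisson intervals for counting error, and neutrophil-like cells are shown for TAC only. Core sums are higher in TAC in fibroblast-, macrophage- and blood endothelial-like cells and lower in TAC in lymphatic endothelial-like cells.

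Members were placed very unevenly over the classes. Ifitm3, which blocks fusion of virus with the cell membrane, was the most abundant member in 3 of the 4 compared classes in TAC, from 2161 CPM in fibroblast-like to 4084 CPM in lymphatic endothelial-like cells. In TAC macrophage-like cells Ifi27l2a, a small interferon-induced protein, was highest at 1954 CPM. T and NK-like cells held Ifitm3 at 286 CPM in sham and 78.2 CPM in TAC.

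Several members had a home class. Ifi44, an interferon-induced cytoplasmic protein, was at 20.0 and 57.5 CPM in sham and TAC blood endothelial-like cells and at 102 and 60.3 CPM in lymphatic endothelial-like cells, but at 7.12 CPM or less in fibroblast- and macrophage-like cells. Iigp1, a GTPase that attacks pathogen vacuoles, likewise stood at 169 and 195 CPM in blood endothelial-like cells and 184 and 136 CPM in lymphatic endothelial-like cells, and at 24.2 and 46.9 CPM in fibroblast-like cells. Mx1, of the dynamin-like GTPase family, was at 12.2 and 19.8 CPM in macrophage-like cells. It was at 3.64 CPM or less in the other 3 compared classes, including 0 UMIs in both sham endothelial classes. The oligoadenylate synthetase Oas1a, whose product activates RNase L, was at 27.0 and 44.4 CPM in macrophage-like cells against 1.20 and 5.38 CPM in fibroblast-like cells. Ifi204, a DNA sensor of a family of close copies, was at 216 and 182 CPM in macrophage-like and 104 CPM in both libraries of fibroblast-like cells, and at 14.5 and 29.3 CPM in blood endothelial-like cells. Ifi47, another vacuole-directed GTPase, was highest in T and NK-like cells, at 169 CPM in sham and 214 CPM in TAC, and low in fibroblast-like cells at 4.98 and 10.3 CPM.

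The comparison of sham with TAC asks which members differ between unloaded and pressure-loaded hearts. A member counts as measured in a class at 10 CPM or more in either library, and as higher or lower at a 2-fold or larger ratio of CPM. Log2 ratios are taken after adding 1 CPM, so they understate the change of low genes.

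In fibroblast-like cells both members of the Isg15 system and 2 of 6 measured antiviral effectors were at least 2-fold higher in TAC, and Irf1 was lower. Of 30 measured members 7 were at least 2-fold higher in TAC (23.3%, against 3.45% of all 8832 measured genes) and 1 at least 2-fold lower (3.33%, against 2.69% of genes). The median log2 ratio of the 30 was 0.33, and that of all measured genes was -0.06. A total of 23 members lay above 0. The count of higher members was 4 of 28 with cells thinned to 2000 UMIs, 3 of 21 at a minimum of 30 CPM and 13 of 38 with no minimum, where 18.9% of all genes passed.

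Ifit3, of the Ifit family of antiviral RNA-binding proteins, was at 28.6 CPM in sham and 79.4 CPM in TAC (2.78-fold, interval 2.59 to 2.98). Isg15, a ubiquitin-like protein joined to newly made proteins, was at 27.7 and 83.6 CPM (3.02-fold, interval 2.81 to 3.25). Its protease Usp18, which also dampens the type I receptor, was at 8.33 and 19.9 CPM. All of these were higher in TAC by more than counting error. That error takes each UMI as independent, while the variance over the mean across TAC cells was 4.64 for Ifit3 and 4.00 for Isg15. The intervals are therefore too narrow for the spread between cells. Rsad2, or viperin, which makes a chain-terminating nucleotide, was at 2.71 and 12.3 CPM in fibroblast-like cells; this was under 10% of its level in TAC blood endothelial-like cells and so within reach of RNA released by other cells. Irf7, the transcription factor that amplifies type I interferon output, was at 22.8 and 46.1 CPM (2.03-fold, interval 1.87 to 2.20). The nucleic acid sensor Zbp1 stood at 4.79 and 10.4 CPM, and Ifi47 passed 2-fold narrowly too, at 2.07. Just under the 2-fold line were Iigp1 (1.94-fold), Trim30a (1.87-fold, a regulator of innate signalling), Oasl2 (31.0 and 57.7 CPM, an OAS-like protein) and the tetherin gene Bst2 (105 and 186 CPM), which holds virus particles at the cell surface.

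Irf1, the GAS-bearing transcription factor, ran the other way, from 80.6 CPM in sham to 21.4 CPM in TAC, which is 3.77-fold lower. At 2000 UMIs a cell, 12.8% of sham and 3.95% of TAC fibroblast-like cells had an Irf1 UMI (26.8% and 19.1% without thinning). Other members hardly differed. Ifi204 was at 104 CPM in both libraries, Gbp2, a guanylate-binding GTPase, was at 55.9 and 55.7 CPM, and Ifih1, the cytosolic RNA sensor MDA5, was at 39.1 and 37.3 CPM. Ifit2 and Cmpk2, a nucleotide kinase encoded beside Rsad2, were slightly lower in TAC, with log2 ratios of -0.24 and -0.34, so the Ifit genes of chromosome 19 (mm10, 34550694 to 34650009) did not differ as a block. The abundant Ifitm3 (1732 and 2161 CPM) and Ifi27l2a (532 and 701 CPM) were 1.25- and 1.32-fold higher. Of the 8 members that fell short of 10 CPM, Ifi44 had the largest ratio, with 14 UMIs (0.442 CPM) in sham and 479 UMIs (7.12 CPM) in TAC. Ifit3b shares nearly all its sequence with Ifit3, and how reads were divided between such copies is not given in the sources used here.

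In macrophage-like cells fewer members passed 2-fold, and 26 of 36 measured members lay above 0. Of the 36, 5 were at least 2-fold higher in TAC (13.9%, against 4.01% of 8377 genes) and 0 were at least 2-fold lower (against 1.68%). The median log2 ratio was 0.42, against -0.03 over all genes. All 11 measured RNA-binding and antiviral effectors were above 0, with a median of 0.62, while 5 of the 6 GTPases were below 0.

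Irf7 was at 43.3 CPM in sham and 118 CPM in TAC macrophage-like cells (2.71-fold, interval 2.40 to 3.08). Ifi27l2a was at 812 and 1954 CPM (2.41-fold, interval 2.34 to 2.48), and it was seen in 65.6% and 82.4% of cells at 2000 UMIs (82.3% and 96.1% unthinned). In T and NK-like cells, the lowest class read in sham, Ifi27l2a was seen in 5.88% and 27.8% of cells at 2000 UMIs, and the unthinned medians were 3415 and 4906 UMIs there against 4660 and 9608 UMIs in macrophage-like cells. Irf7 and Ifi27l2a were thus higher in the TAC library in macrophage-like cells by more than counting error, and the part of released RNA was not tested. Oas3, an oligoadenylate synthetase, had 22 and 174 UMIs (3.16 and 13.8 CPM), Rsad2 was at 17.9 and 46.3 CPM, and Isg15 at 53.9 and 113 CPM (2.10-fold). An exclusive gate, chosen after seeing the data, kept cells only where no other class reached 3 markers. It left 932 out of 1133 cells in sham and 560 out of 918 in TAC, so TAC lost the larger part. Under it the log2 ratio of Rsad2 moved from 1.32 to 0.76, and 5 members were at 2-fold or more (against 3.41% of genes). With a gate ratio of 10 in place of 3 the count was 3 (against 3.41% too).

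The next members by size lay between 1.5- and 1.8-fold: Oasl1 (9.32 and 16.3 CPM), Oas1a (1.65-fold), Xaf1, a partner of the cell death inhibitor XIAP (31.4 and 51.1 CPM), Mx1 (1.62-fold) and Ifit1 (24.0 and 37.3 CPM). Bst2 was at 233 and 339 CPM. The abundant members that were lower in TAC differed by less than 2-fold: Ifitm3 at 1703 and 1459 CPM, Ifi204 at 216 and 182 CPM, and Irf1 at 110 and 76.0 CPM. Macrophage-like cells also carried markers of other cells: all 7 neutrophil markers summed to 71.4 CPM in sham and 326 CPM in TAC, all 8 blood endothelial markers to 27.8 and 168 CPM, and all 8 T and NK markers to 273 and 301 CPM. Their part in these ratios was not tested, beyond the exclusive gate above.

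Blood endothelial-like cells had the highest share of members at least 2-fold higher in TAC among the 4 classes. Of 35 measured members 13 were at least 2-fold higher in TAC (37.1%, against 7.33% of 9312 genes) and 1 at least 2-fold lower (2.86%, against 9.62%). The median log2 ratio was 0.73, against -0.10 over all genes, and 31 of the 35 members lay above 0. The effectors led, with 7 of 9 past 2-fold and a median of 1.25, and both members of the Isg15 system passed.

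Irf7 was at 36.4 CPM (20 UMIs) in sham and 161 CPM (484 UMIs) in TAC, 4.43-fold higher with an interval of 2.83 to 7.31. Rsad2 was at 58.2 and 206 CPM (3.54-fold, interval 2.48 to 5.23) and Isg15 at 65.4 and 160 CPM (2.44-fold, interval 1.74 to 3.52). These 3 were the best counted of the higher members, but their sham levels rest on few cells. In sham, 3 cells held 50% of the Rsad2 UMIs, 35% of the Irf7 UMIs and 30.6% of the Isg15 UMIs. Ifit2 was at 23.6 and 79.5 CPM (3.36-fold), unlike in fibroblast-like cells, where it was slightly lower. Oasl2 was at 30.9 and 79.5 CPM, Ifi44 at 20.0 and 57.5 CPM, Ifih1 at 25.5 and 57.9 CPM and Usp18 at 16.4 and 36.9 CPM, each with an interval above 1. Oas2 passed on 5 and 83 UMIs and Cmpk2 on 13 and 153 UMIs, also with intervals above 1. For Oas1a (4 and 56 UMIs), Oasl1 (4 and 47) and Ifi204 (8 and 88) the interval of the ratio includes 1. Zbp1 was lower on 6 and 16 UMIs, and its interval of 0.181 to 1.52 includes 1 too; it was not 2-fold lower at a gate of 4 markers or after centring on the median of all genes.

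The abundant members moved less. Ifitm3 was at 1679 and 2951 CPM (1.76-fold), Bst2 at 294 and 550 CPM (1.87-fold) and Iigp1 at 169 and 195 CPM. Irf1 was level, at 96.3 and 97.1 CPM, while it was 3.77-fold lower in TAC fibroblast-like cells. In the sham blood endothelial-like cells 7 of 8 fibroblast markers had UMIs and summed to 3064 CPM, against 613 CPM with 8 of 8 in TAC, and the 5 erythroid genes summed to 115 CPM in sham and 6545 CPM in TAC. Under the exclusive gate the class kept 192 sham and 562 TAC cells, with 11 members higher (against 7.53% of genes) and a median of 0.70; the part of the fibroblast and erythroid RNA was not tested.

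Lymphatic endothelial-like cells showed another pattern on few cells. Of 34 measured members 4 were at least 2-fold higher in TAC (11.8%, against 11.2% of 9459 genes) and 9 at least 2-fold lower (26.5%, against 11.2%), so the higher share sat at the background. The median log2 ratio was -0.46, against -0.12 over all genes, and all 6 GTPases were below 0.

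Ifi27l2a was at 316 CPM (62 UMIs) in sham and 1070 CPM (2645 UMIs) in TAC, 3.39-fold higher with an interval of 2.63 to 4.43, and it was seen in 31.3% and 68.1% of cells at 2000 UMIs (39.7% and 88.3% unthinned). Irf7 was at 40.8 and 94.3 CPM on 8 and 233 UMIs. Rsad2 was at 25.5 and 86.6 CPM, but 70.6% of its 214 TAC UMIs came from 1 cell. Oasl1 rested on 1 and 27 UMIs, so Ifi27l2a was the only one of the 4 with more than 8 UMIs in sham. Among the lower members Gbp2 was at 179 and 64.3 CPM on 35 and 159 UMIs (2.77-fold lower), Ifit2 at 102 and 33.6 CPM on 20 and 83 UMIs, and Ifi204 at 45.9 and 13.8 CPM on 9 and 34 UMIs. In sham, 1 cell held 75% of the Ifit2 UMIs and 40% of the Gbp2 UMIs. Ifih1 (66.3 and 25.1 CPM), Ifi47 (6 and 28 UMIs), Rtp4, a chaperone of receptor transport (122 and 56.6 CPM), Stat2 (81.6 and 38.4 CPM), Gbp3 (66.3 and 31.6 CPM) and Irf9 (122 and 59.1 CPM) completed the lower members. Ifitm3 was at 2172 and 4084 CPM, Bst2 at 566 and 588 CPM, Isg15 at 281 and 201 CPM, and Iigp1 at 184 and 136 CPM.

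The class rests on 68 sham cells. In sham, 1 cell held 41.8% of the UMIs of the core members named below and 3 cells held 66.4%; in TAC 1 cell held 31.7%. With cells rich in these members left out, together with cells under 2000 UMIs, in which they cannot be read, the median log2 ratio was -0.02, with 6 members higher (against 13.9% of genes) and 7 lower (against 11.4%) of 29, and only 43 sham cells were then in the class. With only the cells under 2000 UMIs left out the median was -0.40 on 48 sham cells. Both choices were made after seeing the data. The first leaves cells out by UMIs of members that its median and counts include, so it is no independent comparison. The 5 erythroid genes summed to 168 CPM in sham and 3190 CPM in TAC lymphatic endothelial-like cells, and their part was not tested.

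**Figure D2:**
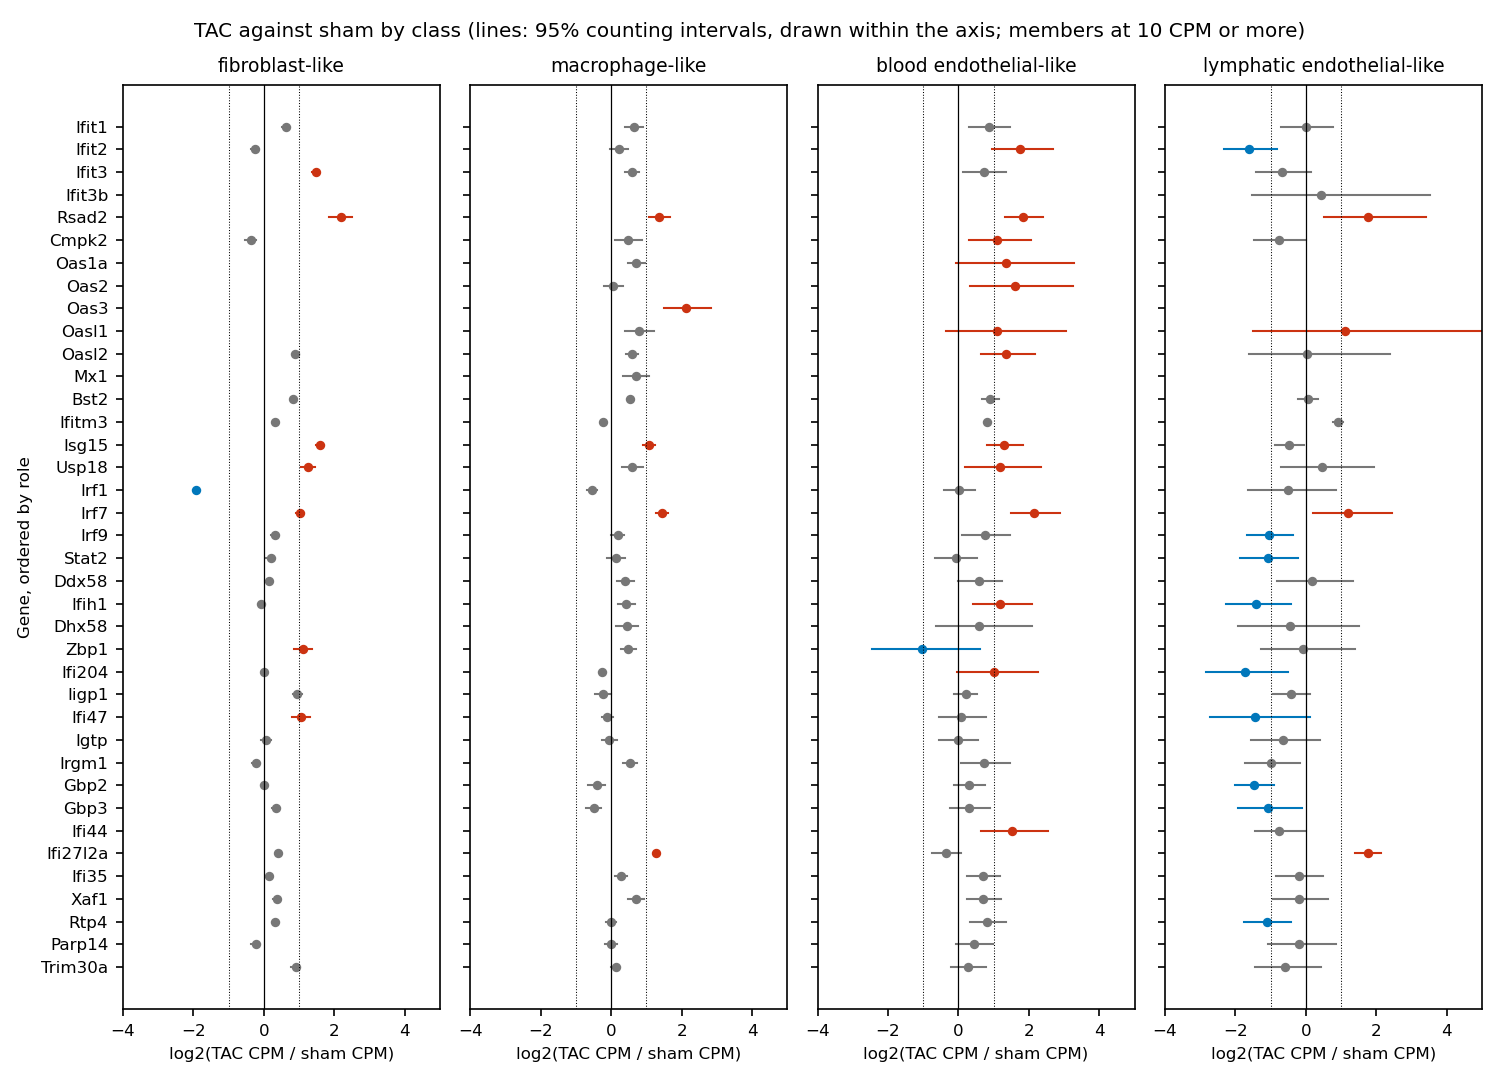
Log2 ratio of TAC to sham CPM (without the added 1 CPM) for each member measured at 10 CPM or more, by class and ordered by role; lines are exact 95% counting intervals, dotted lines mark 2-fold, red points are at least 2-fold higher in TAC and blue points at least 2-fold lower. Irf7 and Rsad2 are red in all 4 panels, Irf1 is blue in fibroblast-like cells, and most blue points are in lymphatic endothelial-like cells.

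Across the 4 classes, 30 members were measured in each, and 6 of these lay above 0 in all 4. Irf7 was at least 2-fold higher in each class, though in fibroblast-like cells it was at 22.0 and 41.6 CPM, under 2-fold, once each cell was thinned to 2000 UMIs. Rsad2 was at least 2-fold higher in each class too, within reach of released RNA in fibroblast-like cells, and with a log2 ratio that turned to -0.67 in lymphatic endothelial-like cells when the gate was set on thinned cells. Isg15 was at least 2-fold higher in 3 classes and 1.40-fold lower in lymphatic endothelial-like cells. No member was below 0 in all 4. Differences between classes in these ratios were not tested.

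For the spread between cells, each cell was read at 2000 UMIs drawn from its own, because TAC cells were deeper, and shallower cells were left out. A core of 11 members was taken, also with earlier results of these data known: Ifit1, Ifit2, Ifit3, Ifit3b, Isg15, Rsad2, Usp18, Cmpk2, Oasl1, Oasl2 and Mx1. Their summed level was 174 and 343 CPM in sham and TAC fibroblast-like cells (1.98-fold, interval 1.92 to 2.04), 274 and 460 CPM in macrophage-like cells (1.68-fold), 329 and 814 CPM in blood endothelial-like cells (2.47-fold, interval 2.13 to 2.89) and 745 and 609 CPM in lymphatic endothelial-like cells (0.818-fold, interval 0.690 to 0.977). The lymphatic ratio was 1.25 without cells of 3 or more core UMIs (core-rich cells) and cells under 2000 UMIs. That cut chooses cells by the same UMIs that the ratio counts, so the value is no independent comparison. With only the cells under 2000 UMIs left out the lymphatic ratio was 0.786.

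Most cells had no core UMI at this depth. In fibroblast-like cells 79.7% of 5977 sham and 75% of 5388 TAC cells had 0, while the highest cell had 37 in sham and 63 in TAC. The top 5% of fibroblast-like cells held 55.5% of the core UMIs in sham and 63.3% in TAC. In TAC blood endothelial-like cells the core was spread more widely, with 47.2% of 568 cells at 0 and 41.3% of the UMIs in the top 5% of cells.

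The variance over the mean across cells, which is 1 for counts spread at random, separated the members. In TAC fibroblast-like cells Ifit3 reached 4.64, Isg15 4.00 and Ifit1 3.84, each above that of 99.3 to 99.4% of genes, and Rsad2 reached 2.96. In contrast Ifi35 (1.06), Ddx58 (1.07, the RNA sensor RIG-I) and Irf9 (1.09) were near random. Ifit2 moved between the libraries, from 1.07 in sham, with at most 3 UMIs in a cell, to 1.78 in TAC with at most 9, although its summed level was slightly lower in TAC. In macrophage-like cells Isg15 was at 3.75 in sham, where Ifit2 was higher at 4.45, and at 7.36 in TAC, the highest of the members there. For unevenly spread counts this measure also rises with the level. Isg15 was at 49.7 CPM in sham and 123 CPM in TAC in these thinned cells, so its values do not show a change in spread alone. In TAC fibroblast-like cells Ifit3 was at 75.3 CPM and Rsad2 at 10.1 CPM, so their order is not one at equal level. For all genes the median was 1.01 and the 95th percentile 1.29 in TAC fibroblast-like cells, and 14 of 28 measured members were above that percentile.

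**Figure D3:**
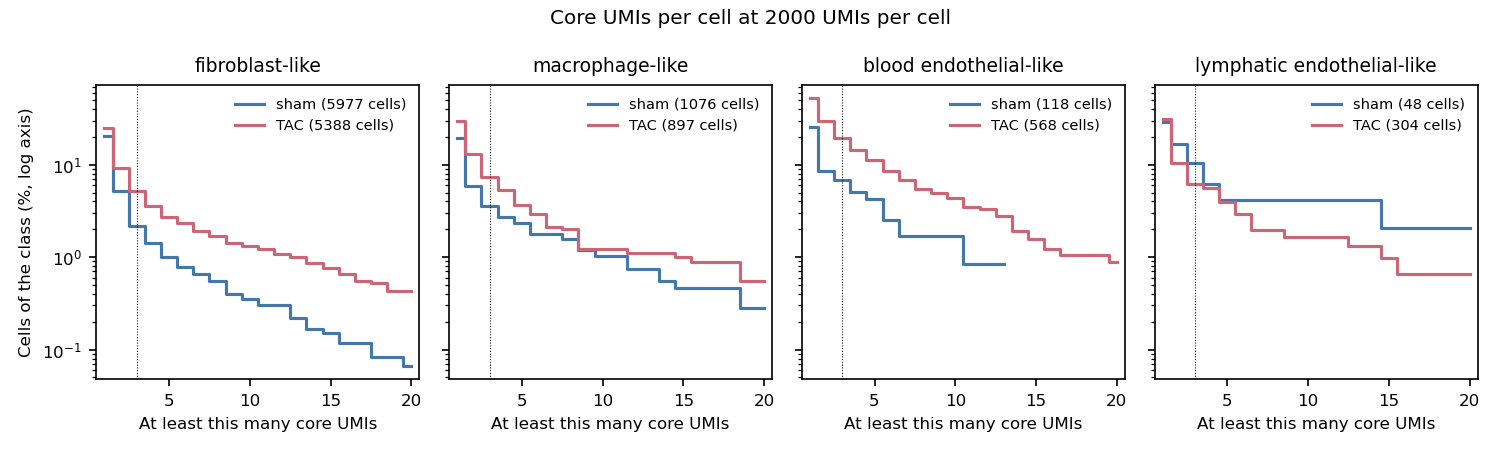
Percent of cells (log axis) that hold at least the number of core UMIs on the horizontal axis, out of 2000 UMIs per cell, for sham (blue) and TAC (red) cells of 4 classes; the dotted line marks 3 core UMIs. The TAC curve lies above the sham curve across fibroblast- and blood endothelial-like cells and crosses it in lymphatic endothelial-like cells.

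Cells with 3 or more core UMIs out of 2000, a cut through a continuous range and not a cell type, made up 2.16% of sham fibroblast-like cells (129 of 5977, interval 1.81 to 2.56%) and 5.22% of TAC ones (281 of 5388, interval 4.64 to 5.84%). In macrophage-like cells the shares were 3.53% and 7.36%, and in blood endothelial-like cells 6.78% (8 of 118) and 19.4% (110 of 568, interval 16.2 to 22.9%). In these 3 classes the TAC share was the higher, and the intervals of the libraries do not overlap. With another random draw of the 2000 UMIs the macrophage-like intervals overlap (2.59 to 4.92% and 4.75 to 8.03%), and with 5 or more core UMIs those of macrophage- and blood endothelial-like cells do. In lymphatic endothelial-like cells the shares were 10.4% (5 of 48) and 6.25% (19 of 304), with overlapping intervals. T and NK-like cells had 0 of 34 and 0 of 36, which at 3 cells of the total allows a share of up to 8.82% and 8.33%. In fibroblast-like cells 184 sham and 211 TAC cells lay 1 UMI below the cut, and 44 and 86 lay on it. In sham fibroblast-like cells the core-rich cells held 39.3% of the core UMIs of their class and in TAC 64.2%; across the 4 classes the range was 39.3% to 83.1%.

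Core members were seen in the same cells more often than their separate frequencies give. In TAC fibroblast-like cells 41 pairs of core members had an expected count of at least 1 shared cell, and a pair was found together 2.70 to 10.9 times as often as the product of the 2 frequencies, with a median of 5.31. The pair nearest to independence was Ifit2 with Isg15, seen together in 44 of 5388 cells. Sham fibroblast-like cells gave a median of 4.06 over 29 pairs.

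The 27 members that the cut did not use were then read in core-rich cells against the other cells of the same class and library. In fibroblast-like cells 18 of 20 measured members were at least 2-fold higher in core-rich cells in each library, against 2.22% of genes in sham and 1.24% in TAC. In macrophage-like cells it was 22 of 25 in sham (against 8.87% of genes) and 22 of 26 in TAC (against 6.61%), and in TAC blood endothelial-like cells 22 of 25 (against 4.17%). The median log2 ratio over the measured members was between 1.56 and 2.31 in these 5 comparisons.

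Irf7 was much higher in core-rich cells, though Rtp4 and Iigp1 in sham and Iigp1 in TAC fibroblast-like cells had larger ratios. It was at 18 CPM in the other cells and 205 CPM in core-rich cells of sham fibroblast-like cells, and at 26.9 and 308 CPM in TAC, 11.4-fold higher in each library. In sham macrophage-like cells it was at 21.7 and 658 CPM (30.4-fold, interval 19.9 to 46.5) and in TAC at 77.6 and 894 CPM (11.5-fold). The TAC macrophage-like cells outside the core-rich group thus held more Irf7 than those of sham. Iigp1 was 12- and 11.6-fold higher in core-rich sham and TAC fibroblast-like cells, Rtp4 12.9- and 10.6-fold and the GTPase gene Igtp 8.82- and 10.6-fold. Stat2, a part of the ISRE-binding complex, was 6.38- and 5.65-fold higher and Irf9 4.83- and 4.37-fold.

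Irf1 was less than 2-fold higher in core-rich cells in all 5 comparisons. It was at 79.2 CPM in the other cells and 147 CPM in core-rich cells of sham fibroblast-like cells, and at 20.4 and 39.2 CPM in TAC, a ratio of 1.86 and 1.92. In macrophage-like cells the ratio was 1.68 and 1.12, and these intervals include 1. Its difference between sham and TAC fibroblast-like cells was present on both sides of the cut. Ifitm3, seen in 94.2% or more of fibroblast-like cells on either side of the cut, was 1.98- and 1.78-fold higher in core-rich cells.

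**Figure D4:**
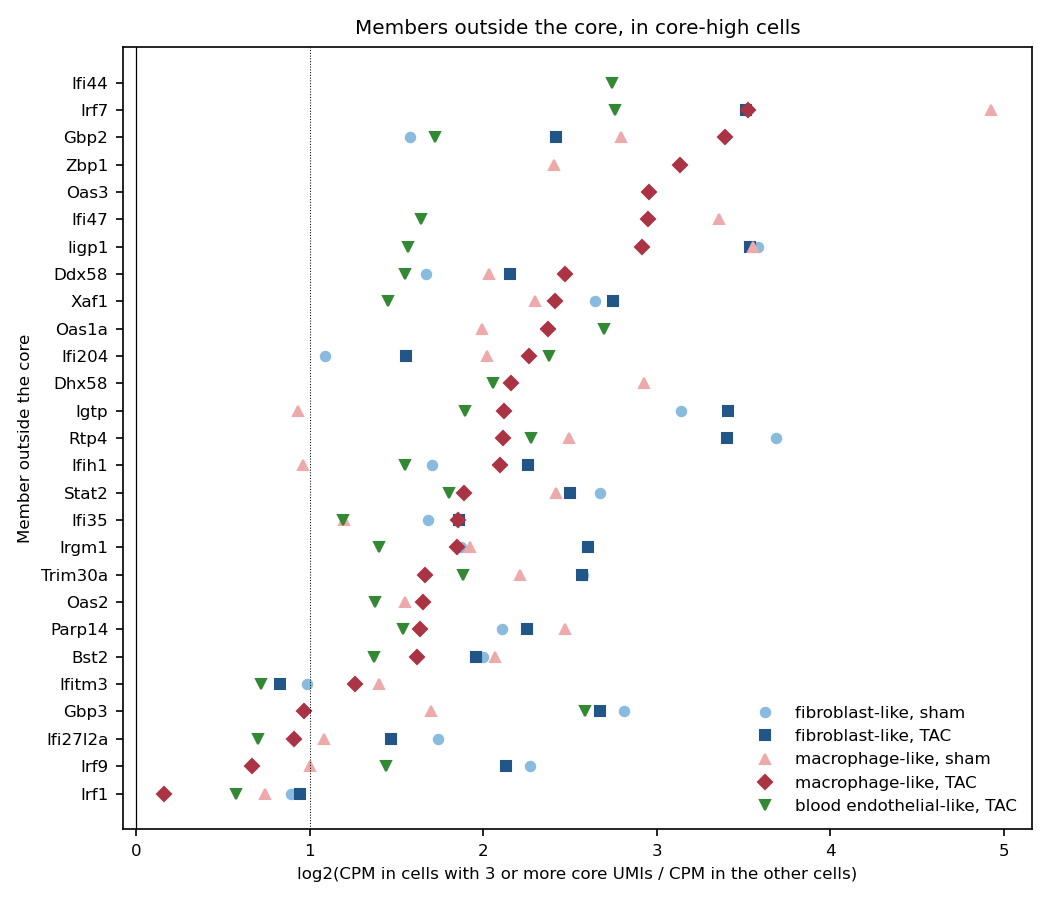
Log2 ratio of CPM in cells with 3 or more core UMIs to CPM in the other cells, for the 27 members outside the core where measured, in 5 combinations of class and library (coloured symbols); the dotted line marks 2-fold. Irf7 lies far to the right in all 5, and Irf1 lies left of the dotted line in all 5.

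Sham and TAC were compared again over the 27 members outside the core, at 2000 UMIs per cell, with and without core-rich cells. In fibroblast-like cells the median log2 ratio was 0.17 over 20 measured members with all cells and -0.05 without core-rich cells, and 0 members were 2-fold higher either way (against 3.5% of genes in both). Leaving such cells out also removes members that follow the core, so the second value is no independent comparison. Without core-rich cells Irf7 was at 18 and 26.9 CPM and Bst2 at 97.0 and 158 CPM in fibroblast-like cells, and Irf1 was lower in TAC, at 79.2 and 20.4 CPM. In macrophage-like cells the median was 0.13 and 0.03, and Irf7 (21.7 and 77.6 CPM) and Ifi27l2a (788 and 1881 CPM) were still at least 2-fold higher in TAC, 2 of 25 against 5.2% of genes. In blood endothelial-like cells the median was 0.72 with all cells and 0.54 without, and 8 of 24 members were at least 2-fold higher without core-rich cells, against 12.9% of genes. The sham levels of these 8 rested on few UMIs, from 1 for Dhx58 to 11 for Xaf1, in 110 cells.

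Classes were split by markers of cell state to compare like cells. Postn, a matrix protein of activated fibroblasts, had a UMI at 2000 UMIs in 172 of 5977 sham and 3087 of 5388 TAC fibroblast-like cells. In TAC, the core was at 349 CPM in cells with Postn and 305 CPM in cells without, and 0 of 28 measured members differed 2-fold, against 0.483% of genes higher and 0.679% lower. Between libraries, cells with Postn had a core of 119 and 349 CPM and a median log2 ratio of 0.31 over 29 members, 6 of them 2-fold higher (against 7.88% of genes). Cells without Postn had 177 and 305 CPM and a median of 0.21 over 27 members, with 3 higher (against 3.05%). The core was thus higher in TAC on each side of the Postn split. Across the split it was higher with Postn in TAC and lower with Postn in sham, where only 172 cells had it. Pi16, a marker of adventitial fibroblasts, gave 175 and 323 CPM with it and 176 and 350 CPM without.

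Among macrophage-like cells, Timd4 marks long-lived resident cells and Ccr2 marks cells derived from monocytes. Cells with Ccr2 and no Timd4 numbered 177 in sham and 297 in TAC, with a core of 254 and 514 CPM and a median log2 ratio of 0.48; 12 of 38 members were 2-fold higher in TAC, against 11.3% of genes. Cells with neither marker had 225 and 335 CPM, a median of 0.21 and 4 of 33 members higher, against 6.49%. Irf7 was at 36.7 and 160 CPM in the Ccr2 cells and at 40.6 and 121 CPM in cells with neither, so it was higher in TAC in both. Within TAC, 7 of 38 members were 2-fold higher in the Ccr2 cells than in cells with neither (against 4.45% of genes), among them Rsad2 at 14.9 and 47.1 CPM on 17 and 28 UMIs. Igtp was lower there, at 46.6 and 21.9 CPM.

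The rest of the pathway was read over a list of 45 genes that are not members. Interferon transcripts themselves were almost unseen. Ifna1, Ifna2, Ifna4, Ifne, Ifnl2 and Ifnl3 had 0 UMIs in both libraries, Ifnb1 had 2 UMIs in sham and 0 in TAC, and Ifnk had 0 and 1. Ifng had 130 UMIs in sham and 165 in TAC, of which 99 and 158 were in cells with at least 3 T and NK markers. Of the 86 and 101 Ifng UMIs in macrophage-like cells, 61 and 96 were in cells that also had 3 T and NK markers.

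Few genes of this list passed 2-fold. In fibroblast-like cells 2 of 26 measured pathway genes were at least 2-fold higher and 2 lower in TAC, in macrophage-like cells 1 of 32 higher and 0 lower, in blood endothelial-like cells 2 of 26 and 0, and in lymphatic endothelial-like cells 4 of 25 and 2. The background shares are those given above for each class. The inhibitors Socs1 and Socs3, which block cytokine receptor kinases, were the lower genes in fibroblast-like cells, Socs1 at 118 and 25.9 CPM and Socs3 at 829 and 150 CPM. The higher ones were the chemokine gene Cxcl10, at 5.93 and 27.2 CPM, and Tmem173, which encodes the adaptor STING, at 6.59 and 15.3 CPM. Irf8 (29.3 and 57.0 CPM) and Il15 (22.7 and 13.2 CPM) came next.

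In TAC fibroblast-like cells 220 of the 226 Cxcl10 UMIs read at 2000 UMIs per cell were in core-rich cells. The receptor genes Ifnar1 (0.697 and 1.18) and Ifnar2 (1.20 and 0.874) had ratios of core-rich to other cells, in sham and TAC fibroblast-like cells, whose intervals include 1.

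In macrophage-like cells the RNA-sensing receptor gene Tlr3 was the higher one, at 6.03 and 14.5 CPM, followed by Ifnar2 at 79.9 and 128 CPM, Tlr7 at 47.3 and 72.5 CPM and Ifnar1 at 63.0 and 91.0 CPM, all under 2-fold. Il15 was at 49.8 and 28.4 CPM. In blood endothelial-like cells Cxcl9 (6 and 122 UMIs) and Ifngr1 (235 and 545 CPM) were higher, and Socs1 (20.0 and 10.6 CPM), Pias1 (70.9 and 40.6 CPM) and Socs3 (198 and 123 CPM) were lower by less than 2-fold, while Tmem173 was at 21.8 and 39.6 CPM. In lymphatic endothelial-like cells Cxcl10 had 0 UMIs in sham and 315 in TAC, at least 8.33-fold higher if the sham class is set at a floor of 3 UMIs. Tyk2, a receptor kinase, had 0 and 52 UMIs and was higher by a factor of 1.38 or more against that floor. Tmem173 was at 30.6 and 75.7 CPM, Ticam1 had 1 and 27 UMIs, Il10rb was at 143 and 69.2 CPM, and Il15 had 4 and 15 UMIs.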

How the data were processed

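Non-cardiomyocytes of 1 sham and 1 TAC library were read from UMI count matrices that the authors deposited, whole-number counts per gene and called cell; per the file headers, Cell Ranger 3.1.0 wrote them. The build was mm10 and Seurat was among the tools per the submitters' processing notes; the gene annotation and the counting of reads shared by close copies are not stated in the labels or headers. Gene positions came from GENCODE vM21, in which 30934 of 31053 gene IDs were found.

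Cells were kept at 500 or more genes, 1000 or more UMIs and at most 15% mitochondrial UMIs, which dropped 462 sham and 901 TAC barcodes. Scrublet, run in Scanpy 1.11.5 on each library with an expected rate of 0.07, marked doublets, which were removed, 70 in sham (0.879%) and 146 in TAC (1.83%). A cell took a class when at least 3 distinct markers of it had a UMI and their UMI sum was at least 3 times that of every other class with 3 or more markers; lymphatic endothelial markers took precedence over blood endothelial ones; the authors' cell names were not used, so differences from their classes can come from rebuilt names. UMIs were summed per class and library (NumPy 2.4.6, SciPy 1.17.1) with exact Poisson intervals, exact conditional intervals of ratios and Clopper-Pearson intervals of shares, and compared where a class had at least 50 cells in each library. A member was said to be within reach of released RNA when its CPM was under 10% of that of another class of at least 50 cells. The total UMIs of the compared classes ran from 196099 to 67287531, which sets their counting error. Since each group is a single library, nothing was tested.

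Members and lists were chosen with earlier results of these data known. In each compared class values are given for the 10 members with the largest absolute log2 ratio, the 5 with the highest CPM, and the 6 pathway genes with the largest absolute log2 ratio; other members were named after their values were seen. Alternatives covered scaling, minimum level, pseudocount, fold, gate, doublets, cell filter, thinning depth and the core threshold. The code was tested on simulated data. The values of 1 pathway gene are not reported here.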

Additional observations from a re-analysis of the deposited data

Results flagged for a closer look

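The following members were at least 2-fold higher in TAC in 1 class and at least 2-fold lower in another by CPM. The log2 ratios are taken after adding 1 CPM, so those of low genes can lie within 1 of 0. The difference between classes was not tested in any case. The log2 ratio of Ifit2 was 1.71 in blood endothelial-like cells and -1.57 in lymphatic endothelial-like cells, where 1 sham cell held 75% of its UMIs. That of Ifih1, the RNA sensor MDA5, was 1.15 and -1.37 in the same classes, but the lymphatic value was 0.14 with cells thinned to 2000 UMIs. That of Ifi204 was 0.961 and -1.67. Ifi47 was at 0.921 in fibroblast-like and -1.36 in lymphatic endothelial-like cells, where it rested on 6 and 28 UMIs, the interval of the ratio (0.150 to 1.09) includes 1, and the value was 0.024 without core-rich cells. Zbp1 was at 0.973 in fibroblast-like cells and -0.914 in blood endothelial-like cells, the latter on 6 and 16 UMIs.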

How the results depend on the processing

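No paired analysis was possible because each group had 1 library. The gate that excludes every other class, the omission of cells with 3 or more core UMIs (which also drops cells under 2000 UMIs), the omission of cells under 2000 UMIs alone and the Postn cut at 2 UMIs were added after seeing the data. The number of fibroblast-like members at least 2-fold higher, 7, was 4 with cells thinned to 2000 UMIs, 4 as a mean over cells, 3 at a minimum of 30 CPM, 13 with no minimum, 12 at 1.5-fold (7.87% of all genes) and 0 without core-rich cells, where the median log2 ratio was 0.087. With only the cells under 2000 UMIs left out these were 7 and 0.33. In every class the counts, medians and core ratios without core-rich cells include core members, whose UMIs chose the cells left out. They are no independent comparison. In macrophage-like cells the count of 5 was 13 at 1.5-fold (8.86% of all genes) and 3 at a gate ratio of 10 (3.41%). In blood endothelial-like cells the higher count was 22 at 1.5-fold (15.4% of all genes), the lower count was 0 under centring, a minimum of 30 CPM, a gate of 4 markers, a gate on thinned cells, the stricter cell filter, no cell filter (doublets were called anew under each filter) without core-rich cells and without cells under 2000 UMIs, and the summed TAC level of the 38 members was 5976 CPM at a gate of 4 markers. In lymphatic endothelial-like cells the lower count was 5 under centring and 14 at 1.5-fold (23.7% of all genes), and the median was -0.76 with the gate on thinned cells. Reversed there were Ifih1 (0.14 with thinned cells), Rsad2 (-0.67 with the gate on thinned cells), and, without core-rich cells, the core ratio (1.25) and Ifi47 (0.024). The cause of these changes was not tested.

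Shares of cells move with the threshold and the depth by construction. With 2 or more core UMIs they were 5.24% and 9.13% in sham and TAC fibroblast-like cells, 5.95% and 12.9% in macrophage-like cells, and 29.4% and 10.5% in TAC blood and lymphatic endothelial-like cells. With 5 or more they were 1.00% and 2.75%, 2.32% and 3.68%, and 11.3% in TAC blood endothelial-like cells. At 3500 UMIs per cell the shares with 3 or more were 4.36% and 8.42%, 5.82% and 10.5%, and 25.8% and 12.8% in TAC blood and lymphatic endothelial-like cells; the top 5% of fibroblast-like cells then held 48.9% and 60.8% of core UMIs. Of the single-member ratios under the alternatives, 898 stayed within their counting interval, 71 moved outside it, and 3 reversed. Among the compared classes, depth limits sham blood and sham lymphatic endothelial-like cells most, with medians of 2374 and 2710 UMIs per cell.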
